A study of Homo sapiens with 12 samples.

Results

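The ratio of ribosome footprints to mRNA reads was examined gene by gene in unmodified human cells, as the baseline that a study of the 4EHP-GIGYF repressor complex compares its knockouts with. The comparison used 4 of the study's 12 libraries, chosen by their labels: Ribo-seq replicates 1 and 2 and RNA-seq replicates 1 and 2 of wild-type (WT) HEK293T, a human embryonic kidney line that expresses the SV40 large T antigen. The other libraries came, 4 each, from HEK293T cells lacking 4EHP (4EHP-null) and from cells lacking GIGYF1 and GIGYF2 (GIGYF1/2-null). They entered only through the scaling within each assay, the shared estimate of replicate spread and a closing comparison of ratios. All cells were untreated and were seeded 24 h before harvest, and the labels do not say whether each null line was 1 clone. The series record calls the 2 libraries of a group biological replicates without saying what was repeated, so every p-value here measures the spread between these samples.

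RNA-seq counts reads from the RNA that enters the library and so follows how much of each such mRNA is present. Ribo-seq sequences the short stretches of mRNA that a translating ribosome shields from nuclease, and so follows where ribosomes sit. The footprint level of a gene divided by its mRNA level is widely used as an index of translation efficiency, since an mRNA on which few ribosomes initiate collects few footprints per copy. Short upstream reading frames, folded leaders and binding proteins lower initiation on particular mRNAs, and the terminal oligopyrimidine (TOP) start of ribosomal protein mRNAs puts them under growth control. 4EHP, the subject of the study, binds the mRNA cap without recruiting the initiation machinery.

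The WT RNA-seq libraries held 30218246 and 38175701 counts and the WT Ribo-seq libraries 6968894 and 10611080, over 27011 genes. Of these, 12593 genes had enough reads in both assays to be tested, 2327 had enough in RNA-seq alone, 1303 in Ribo-seq alone and 10788 in neither. Levels are CPM, counts divided by library totals that were adjusted within each assay by the trimmed mean of M-values (TMM) and are given for replicate 1 and then replicate 2, with 2 libraries per assay throughout. Ratios are log2 of footprint over mRNA level ± standard error, and adjusted p-values are from edgeR's two-sided quasi-likelihood test over the 12593 genes. Reads were not corrected for gene length, so levels are compared between assays and not between genes. No source used here says over which part of each gene reads were counted. Translating ribosomes cover the coding part of an mRNA, so ratios may also differ between genes with the coding share of their mRNAs. That share was not analysed here. All 7 HEK293 marker genes examined were tested (VIM, KRT8, KRT18, NEFL, NEFM, CDH2 and PAX2), with summed levels of 1254 and 1098 CPM in RNA-seq. The 9 markers of leukocyte, erythroid, liver, fibroblast, endothelial, glial and epithelial cells summed to 12.8 and 14.6 CPM, of which COL1A1 made up 6.24 and 6.51 CPM, and PTPRC and PECAM1 had no RNA-seq read.

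With each assay scaled on its own, most genes had a lower footprint than mRNA level. Of the 12593 genes, 7028 lay below a ratio of 1 (55.8%) and 2179 above it (17.3%), 73.1% in either direction. With at least a 2-fold difference as well, 3840 genes lay below (30.5%) and 901 above (7.15%). The median log2 ratio was -0.50, with quartiles of -1.17 and 0.11. A ratio of 1 is set by the scaling: scaling the 12 libraries together moved the median to between -0.07 and 0.10, so nearly all gene lists are also counted against the median gene. Against the median gene, 4392 genes lay above (34.9%) and 4447 below (35.3%). These percentages, and the 17.3% above and 55.8% below a ratio of 1, are the shares that each list's counts below are to be read against.

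Genes with high and low ratios differed in kind. Of the 901 genes above by at least 2-fold, 526 were protein-coding in RefSeq, 146 were pseudogenes, 111 long non-coding RNAs, 64 small structured RNAs and 3 microRNA hairpins, and 51 symbols were unmatched. Of the 3840 below by at least 2-fold, 3601 were protein-coding, 158 long non-coding RNAs, 33 pseudogenes and 2 microRNA hairpins, with 46 unmatched and no small structured RNA. Among protein-coding genes the median was -0.54 (n = 11547), and among pseudogenes 1.47 (n = 247). A further 206 pseudogenes had enough reads in Ribo-seq alone and 82 in RNA-seq alone. The assignment of reads between pseudogenes and similar coding genes is uncertain, so no translation is read from the pseudogene ratios. Across the genes tested, footprint and mRNA levels on a log2 scale had a Pearson correlation of 0.797 and a Spearman correlation of 0.831 (n = 12593). Over protein-coding genes alone these were 0.834 and 0.850 (n = 11547). For comparison, the Pearson correlation of replicates was 0.995 between the RNA-seq libraries and 0.989 between the Ribo-seq libraries. These correlations run across genes, which are not independent replicates.

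**Figure D1:**
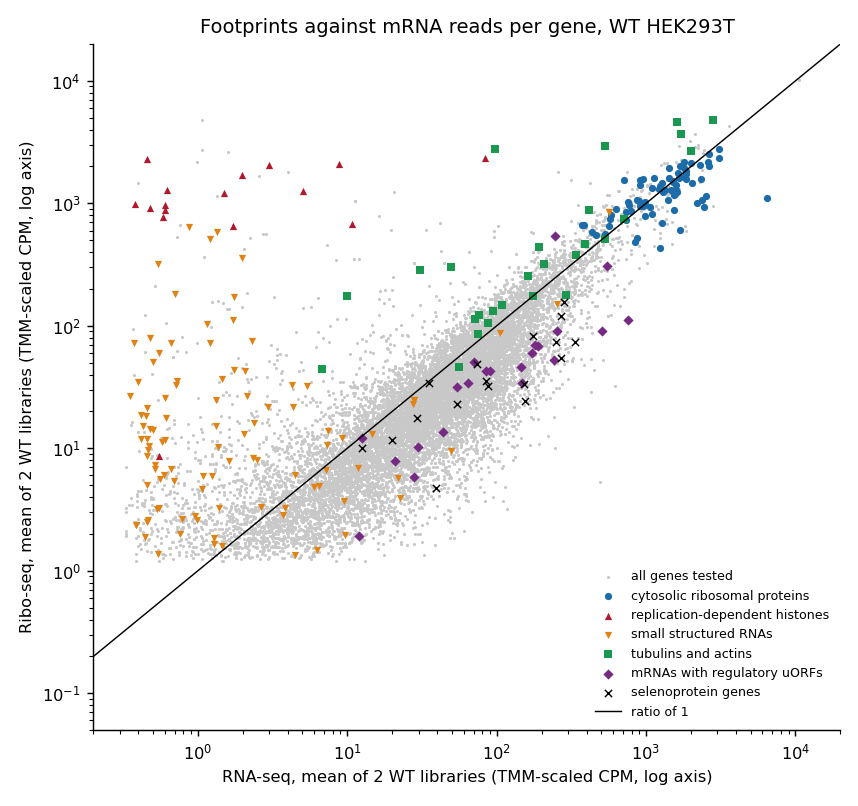
Each grey dot is 1 of the 12593 genes tested in WT cells, with its mean RNA-seq level on the x axis and its mean Ribo-seq level on the y axis, both in TMM-scaled CPM on log axes, and the line marks a ratio of 1. Ribosomal protein genes lie along the line, and replication-dependent histone genes and most small structured RNAs far above it. Of the 22 mRNAs with regulatory upstream reading frames (uORFs), 20 were called below a ratio of 1 by the test.

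A well-known sequence class among translated mRNAs is the TOP class, whose transcripts begin with a C and an unbroken run of pyrimidines next to the cap. The first 20 bases from the start annotated in RefSeq (GRCh38.p14) are shown because they let this class be told from others by eye. Capitals mark the unbroken run of C and T from the first base.
EEF1A1, chr6:73521013-73521032, minus strand: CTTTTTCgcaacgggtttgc
EEF2, chr19:3985444-3985463, minus strand: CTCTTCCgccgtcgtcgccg
TPT1, chr13:45341164-45341183, minus strand: CTTTTCCgcccgctcccccc
RPS6, chr9:19380217-19380236, minus strand: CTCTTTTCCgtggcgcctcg
RPLP0, chr12:120201092-120201111, minus strand: CCTTCTCTCgccaggcgtcc
RPL3, chr22:39319604-39319623, minus strand: CTCTaccggcgggatttgat
GAPDH, chr12:6535264-6535283, plus strand: gtccggatgctgcgcctgcg
ATF4, first of 2 starts, chr22:39520559-39520578, plus strand: agccatttctactttgcccg

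Counting a start as TOP where it was a C at the head of at least 5 pyrimidines in a row, 1429 of 35116 annotated starts qualified (4.07%). Among ribosomal protein genes tested, 47 of the 63 with an annotated start did (74.6%), and among the other listed TOP mRNAs 9 of 11 (81.8%). RPL3, with a run of 4, fell short of the rule, as did GAPDH and ATF4. Over all protein-coding genes tested, 728 of 9593 qualified (7.59%). Outside both lists, 672 genes with a TOP start had a median log2 ratio of -0.61 and 8847 genes without one a median of -0.53. A matching start is a description of the annotated letters, and cap-proximal sequence in these cells was not measured.

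Ribosomal protein mRNAs sat near a ratio of 1 and above the median gene. Of 79 listed genes, 78 were tested: 16 lay above a ratio of 1 (17.3% of all genes did), 22 below (55.8%) and 40 passed neither way. Their median log2 ratio was -0.04 against -0.50 for all genes, and against the median gene 48 lay above (34.9% of all genes) and 9 below (35.3%). The medians were -0.02 over 47 large-subunit genes and -0.13 over 31 small-subunit genes. Their mRNAs are short, and once the trend of the ratio with gene width was removed their median lay 0.08 above that of all genes, against 0.46 before. The 47 members with a TOP start had a median of -0.08 and the 16 without one a median of 0.09.

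Within the ribosome the ratios spanned more than 3 log2 units. RPS2, a protein of the mRNA entry region of the small subunit, had 6393 and 6510.0 CPM of mRNA reads and 1122 and 1083 CPM of footprints, a log2 ratio of -2.55 ± 0.12 (adjusted p = 4.22e-11). Both footprint values were far under both mRNA values. RPS12 had 1204 and 1281 CPM of mRNA reads against 433 and 433 CPM of footprints, a ratio of -1.52 ± 0.12 (adjusted p = 1.91e-08). RPL38, at the other end, had 705 and 723 CPM of mRNA reads and 1643 and 1459 CPM of footprints, a ratio of 1.12 ± 0.18 (adjusted p = 3.11e-05). RPS26 also lay above, at 0.83 ± 0.13 (adjusted p = 2.30e-05), and its footprints exceeded its mRNA reads in every pairing of libraries. The stalk proteins did not lie together: RPLP0 and RPL12, which form the base of the ribosomal stalk, were at -1.38 ± 0.12 and -1.46 ± 0.13 and both passed the test, while RPLP2 was at 0.11 ± 0.13 and did not. RPS6, with the long pyrimidine start shown above, was at -0.39 ± 0.12 (adjusted p = 0.00735), which turned to 0.04 to 0.21 when the assays were scaled together and did not pass, at -0.33, without RNA-seq replicate 2. RPL3, with the short run, was at -0.47 ± 0.12 (adjusted p = 0.00244), but 0.03 above the median gene (adjusted p = 0.817). Ribosomal protein genes have many processed pseudogenes, so the assignment of their reads is uncertain.

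The other TOP mRNAs, which encode elongation factors and RNA-binding proteins, divided. Of 18 tested, 8 lay above a ratio of 1 and 4 below, with a median of 0.14, and 14 above and 3 below against the median gene. EEF1A1, the elongation factor that brings aminoacyl-tRNA to the ribosome, took more reads than any other gene in both RNA-seq libraries, 10473 and 10725 CPM, and 10540.0 and 9609 CPM of footprints. Its ratio was -0.07 ± 0.13 (adjusted p = 0.627), the values of the 2 assays overlapped, and against the median gene it lay 0.43 above and passed. EEF2, the translocation factor, had 2045 and 2211 CPM of mRNA reads and 3258 and 2541 CPM of footprints, at 0.45 ± 0.14 (adjusted p = 0.0115). The EEF2 ratio was 0.39 without RNA-seq replicate 1 and 0.26 without Ribo-seq replicate 1, and passed the test in neither case. PABPC1, the cytoplasmic poly(A)-binding protein, had 1018 and 928 CPM against 390.0 and 360.5 CPM, at -1.37 ± 0.14 (adjusted p = 3.85e-07). TPT1, a small tumour-associated protein, was at -1.02 ± 0.13 (adjusted p = 3.87e-06) and EIF4B, a helper of the eIF4A helicase, at -1.03 ± 0.21 (adjusted p = 0.000385). VIM, the intermediate filament vimentin, stood highest in this list with 797 and 687 CPM of mRNA reads and 1975 and 1623 CPM of footprints, at 1.28 ± 0.19 (adjusted p = 1.72e-05).

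**Figure D2:**
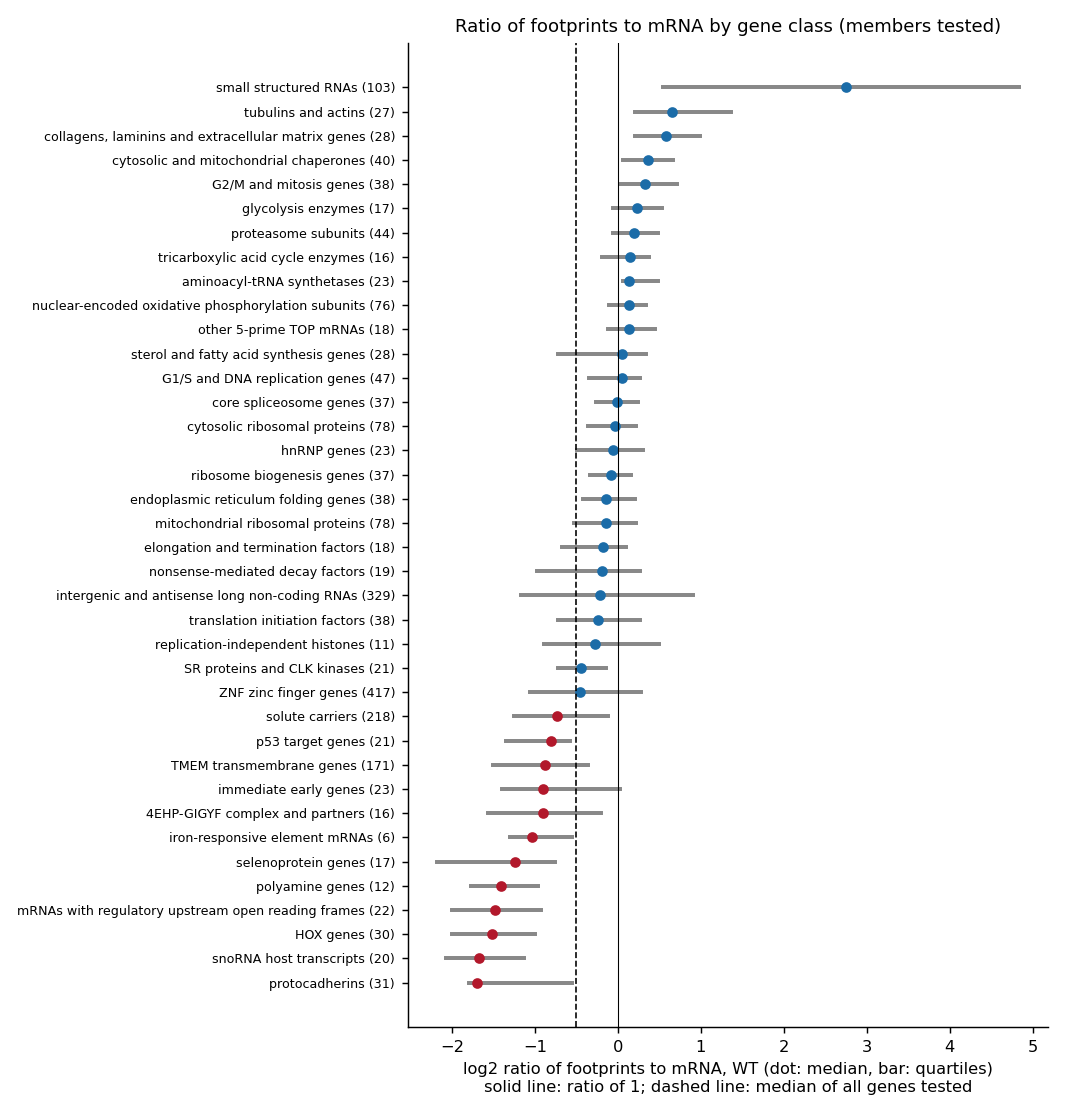
Median (dot) and quartiles (bar) of the log2 ratio of footprints to mRNA in WT cells for 38 gene classes, with the number of members tested in brackets. The dashed line is the median of all genes at -0.50 and the solid line a ratio of 1, and replication-dependent histones, with a median of 9.69, are left off to keep the scale readable.

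Initiation factors as a list lay near the shares of all genes against a ratio of 1, but leaned high against the median gene. Of 38 tested, 8 lay above a ratio of 1 (21.1%, against 17.3% of all genes) and 17 below (44.7%, against 55.8%). Their median was -0.24, which is 0.26 above that of all genes. Against the median gene 19 lay above and 8 below, with 34.9% of all genes above and 35.3% below. Of 13 subunits of eIF3 over this and the TOP list, the scaffold that joins mRNA to the small subunit, 6 lay above and 1 below. Of 13 genes named eIF4 or encoding eIF4E-binding proteins over the same lists, 2 lay above and 10 below, with EIF4A3 among those above. EIF4EBP2, a repressor that sequesters eIF4E, had 432 and 427 CPM of mRNA reads and 29.6 and 28.3 CPM of footprints, at -3.89 ± 0.12 (adjusted p = 1.16e-12). EIF4E3, a cap-binding relative of eIF4E, had 51.9 and 46.9 CPM against 6.78 and 4.64 CPM, at -3.15 ± 0.17 (adjusted p = 1.91e-10). EIF4A3, the helicase of the exon junction complex and a member of the decay list below, stood above at 0.82 ± 0.10 (adjusted p = 3.51e-06). EIF3C was listed at 6.54 ± 0.29, with 10.3 and 12.3 CPM of mRNA reads and 1187 and 919 CPM of footprints. The near-identical EIF3CL had 1187 and 919 CPM of footprints, so reads cannot be assigned between the 2 genes.

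Elongation and termination factors had a median of -0.18 (18 tested), which is 0.32 above that of all genes. Of these, 1 lay above a ratio of 1 (5.56%, against 17.3% of all genes) and 8 below (44.4%, against 55.8%). Against the median gene 9 lay above and 4 below, with 34.9% of all genes above and 35.3% below. EEF1A2, a second form of the elongation factor, was the 1 above, at 0.74 ± 0.11 (adjusted p = 1.53e-05). GTPBP2, which helps rescue stalled ribosomes, was lowest at -1.91 ± 0.14 (adjusted p = 4.09e-09), and DPH2, an enzyme of the diphthamide modification of EEF2, was at -1.73 ± 0.11 (adjusted p = 9.07e-10). Aminoacyl-tRNA synthetases were more uniform: 8 of 23 lay above, none below, and all 23 lay above the median gene. EPRS, the glutamyl-prolyl synthetase, had 263 and 232 CPM of mRNA reads and 522 and 554 CPM of footprints, at 1.12 ± 0.15 (adjusted p = 6.81e-06). Its partner AIMP2, a scaffold of the multisynthetase complex, was at 1.10 ± 0.09 (adjusted p = 3.03e-08).

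Of 16 tested genes of 4EHP, GIGYF1/2 and their partners, 1 lay above (17.3% of all genes did) and 11 below (55.8%), with a median of -0.90. Against the median gene the counts were 5 above and 8 below (34.9% and 35.3% of all genes). EIF4E2, which encodes 4EHP, had 123 and 124 CPM of mRNA reads and 38.0 and 33.6 CPM of footprints, at -1.79 ± 0.12 (adjusted p = 3.27e-09). GIGYF1 had 41.2 and 41.0 CPM against 8.66 and 6.73 CPM, at -2.44 ± 0.16 (adjusted p = 2.43e-09). Its paralog GIGYF2 had 81.3 and 66.4 CPM of mRNA reads and 90.5 and 64.0 CPM of footprints, at 0.06 ± 0.20 (adjusted p = 0.804), and its 2 assays overlapped. Among the PRRC2 genes, listed as partners, PRRC2B was low at -2.38 ± 0.22 (adjusted p = 8.20e-08) and PRRC2C high at 0.73 ± 0.21 (adjusted p = 0.00522).

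Nonsense-mediated decay factors, which find mRNAs with early stop codons, lay near the shares of all genes against a ratio of 1. Of 19 tested, 3 lay above (15.8%, against 17.3%) and 9 below (47.4%, against 55.8%). Their median was -0.19, which is 0.31 above that of all genes. Against the median gene 9 lay above and 7 below, with 34.9% of all genes above and 35.3% below. SMG5, which binds the phosphorylated helicase UPF1, was lowest at -2.62 ± 0.11 (adjusted p = 9.85e-12), with 258 and 269.9 CPM of mRNA reads and 42.9 and 43.1 CPM of footprints. UPF1 itself was at 0.33 ± 0.15 (adjusted p = 0.0575). NBAS was above at 0.72 ± 0.13 (adjusted p = 0.000104).

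Core RNA-processing lists had medians close to a ratio of 1. Core spliceosome genes had a median of -0.01 (8 above and 8 below of 37), ribosome biogenesis genes -0.09 (7 and 9 of 37), and hnRNP genes -0.06 (6 and 6 of 23). SR proteins and CLK kinases, which direct splice-site choice, were at -0.45, close to all genes, with 2 above and 13 below of 21. Against the median gene, spliceosome genes had 26 above and 2 below, biogenesis genes 20 above and 2 below, hnRNP genes 14 above and 3 below, and SR and CLK genes 7 above and 5 below. SNRPB2, a U2 snRNP protein, was at 0.76 ± 0.13 (adjusted p = 9.81e-05) and LSM4, of the Lsm ring, at -1.41 ± 0.14 (adjusted p = 2.17e-07). HNRNPUL1 was lowest of the hnRNP genes at -1.47 ± 0.12 (adjusted p = 1.59e-08). NOP56, a core protein of box C/D small nucleolar ribonucleoproteins, was at -1.01 ± 0.16 (adjusted p = 3.71e-05). CLK4, a kinase of SR proteins, was at -1.26 ± 0.23 (adjusted p = 0.000165), with footprints of 3.61 and 6.45 CPM against mRNA reads of 11.8 and 13.2 CPM.

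Mitochondrial and metabolic lists had medians above that of all genes. Nuclear-encoded oxidative phosphorylation subunits had a median of 0.14, with 26 above and 8 below of 76, and 62 above and 3 below against the median gene. ATP5G3, which encodes subunit c of ATP synthase, had 406 and 435 CPM of mRNA reads and 1534 and 1396 CPM of footprints, at 1.80 ± 0.17 (adjusted p = 1.32e-07). UQCR11, a small subunit of complex III, was lowest at -0.90 ± 0.13 (adjusted p = 1.04e-05). Mitochondrial ribosomal proteins had 19 above and 32 below of 78 and a median of -0.14, with 46 above and 8 below against the median gene, from MRPS31 at 0.98 ± 0.14 to MRPS25 at -1.23 ± 0.11. With the width trend removed, the medians of these 2 lists lay 0.29 (oxidative phosphorylation) and 0.20 (mitochondrial ribosome) above that of all genes, against 0.64 and 0.36 before. Enzymes of the tricarboxylic acid cycle had a median of 0.14, with 6 above and 4 below of 16 and 12 above and none below against the median gene, from fumarase (FH) at 0.92 ± 0.10 (adjusted p = 4.71e-07) to DLST at -0.64 ± 0.11 (adjusted p = 7.78e-05).

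Glycolytic enzymes had a median of 0.23, with 8 above and 1 below of 17, and 16 of them lay above the median gene. ALDOC and ENO2, brain-type isoforms of aldolase and enolase, stood highest at 1.51 ± 0.17 (adjusted p = 9.99e-07) and 1.41 ± 0.18 (adjusted p = 2.63e-06). GAPDH had 2323 and 2569 CPM of mRNA reads and 2634 and 2813 CPM of footprints, at 0.16 ± 0.11 (adjusted p = 0.224). TPI1, triosephosphate isomerase, was the 1 below at -0.29 ± 0.12 (adjusted p = 0.0346), and it turned to 0.13 to 0.31 when the assays were scaled together. The TPI1 call was also lost without RNA-seq replicate 2 (-0.17), Ribo-seq replicate 1 (-0.33) or Ribo-seq replicate 2 (-0.26). Sterol and fatty acid synthesis genes split, with 10 above and 12 below of 28, and 15 above and 4 below against the median gene. FASN, fatty acid synthase, had 317 and 382 CPM of mRNA reads and 1036 and 921 CPM of footprints, at 1.48 ± 0.13 (adjusted p = 6.66e-08). INSIG1, which retains the sterol sensor in the endoplasmic reticulum, had 247 and 323 CPM against 55.7 and 85.7 CPM, at -2.003 ± 0.31 (adjusted p = 2.56e-05), and SREBF2, the master transcription factor of the pathway, was at -1.20 ± 0.10 (adjusted p = 2.94e-08).

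Proteasome and chaperone lists also had medians above that of all genes. Proteasome subunits had a median of 0.19, with 20 above and 7 below of 44 and 36 above and 2 below against the median gene, from the core subunit PSMB3 at 0.96 ± 0.12 (adjusted p = 2.20e-06) to the assembly chaperone PSMG3 at -1.60 ± 0.13 (adjusted p = 1.68e-08). Chaperones had a median of 0.36, with 24 above and 7 below of 40, and 31 above and 2 below against the median gene. Of the 8 subunits of the CCT chaperonin, which folds actin and tubulin, 7 lay above a ratio of 1, and TCP1, at 0.19 ± 0.12 (adjusted p = 0.158), did not pass. The stress-inducible HSPA1A and HSPA1B are near-identical in sequence, and their reads cannot be assigned between them. HSPA1B had 304 and 209 CPM of mRNA reads and 2508 and 1074 CPM of footprints, at 2.80 ± 0.49 (adjusted p = 9.34e-05), with Ribo-seq replicate 1 well above replicate 2, and the HSPA1B ratio was 2.06 without replicate 1. HSPA1A had 3.60 and 1.57 CPM against 2326 and 989.8 CPM, with the same difference between the Ribo-seq libraries.

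Endoplasmic reticulum folding genes lay on both sides, with 9 above and 16 below of 38, a median of -0.14, and 20 above and 5 below against the median gene. HSPA5, the lumenal chaperone BiP, had 553 and 539.6 CPM of mRNA reads and 1148 and 1175 CPM of footprints, at 1.09 ± 0.11 (adjusted p = 3.46e-07). ERP44, a thioredoxin-like quality-control protein, was at 1.08 ± 0.12 (adjusted p = 6.43e-07). XBP1, a transcription factor of the unfolded protein response, had 158 and 137 CPM against 41.1 and 39.5 CPM, at -1.87 ± 0.11 (adjusted p = 3.61e-10). EDEM1, which sends misfolded glycoproteins to degradation, was lowest at -2.30 ± 0.13 (adjusted p = 4.05e-10).

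Cytoskeletal and extracellular matrix genes were the high end of the conventional protein-coding lists. Tubulins and actins had a median of 0.65, with 18 above and 1 below of 27, and 10 lay above by at least 2-fold (7.15% of all genes did), with 25 above and none below against the median gene. Of 11 tubulin genes, 10 lay above, and they are close paralogs whose reads are uncertain. TUBB3, the neuronal beta-tubulin, had 9.64 and 10.2 CPM of mRNA reads and 197 and 150.1 CPM of footprints, at 4.12 ± 0.20 (adjusted p = 6.85e-11). TUBA1A had 97.3 and 97.6 CPM against 2673 and 2848 CPM, at 4.82 ± 0.13 (adjusted p = 2.15e-13). ACTB, beta-actin, had 1662 and 1556 CPM of mRNA reads and 4828 and 4424 CPM of footprints, at 1.52 ± 0.12 (adjusted p = 1.28e-08). TMSB10, a small actin-sequestering peptide, was the 1 below at -0.70 ± 0.16 (adjusted p = 0.00104).

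Matrix genes had a median of 0.58, with 19 above and none below of 28, and 27 above and none below against the median gene. All 6 laminin chains lay above, from 0.38 to 1.16, and 5 of 12 collagens did. LAMB1 had 52.8 and 54.6 CPM of mRNA reads and 117 and 124 CPM of footprints, at 1.16 ± 0.10 (adjusted p = 2.73e-08). LAMA1 was at 1.11 ± 0.11 (adjusted p = 2.79e-07). FN1 and THBS1, the secreted adhesion proteins fibronectin and thrombospondin, were at 1.06 ± 0.10 (adjusted p = 2.10e-07) and 1.10 ± 0.40 (adjusted p = 0.0209). SPARC and COL1A1 were lowest at -0.12 ± 0.14 (adjusted p = 0.447) and -0.03 ± 0.21 (adjusted p = 0.918) and did not pass.

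Mitotic genes had a higher median than replication genes, a difference that was not tested. G2/M genes had a median of 0.32, with 20 above and 4 below of 38, and 31 above and 1 below against the median gene. CENPE, a kinetochore motor, had 17.9 and 14.9 CPM of mRNA reads and 175 and 158 CPM of footprints, at 3.34 ± 0.20 (adjusted p = 7.72e-10). CENPF, a large kinetochore protein, had 66.7 and 64.5 CPM against 424 and 370.4 CPM, at 2.60 ± 0.16 (adjusted p = 1.11e-09), and in both genes the footprint values lay over the mRNA values in all libraries. BIRC5, survivin, was lowest at -1.55 ± 0.12 (adjusted p = 1.73e-08). G1/S and replication genes had a median of 0.04, with 11 above and 12 below of 47, and 31 above and 8 below against the median gene. E2F1, the transcription factor of S-phase entry, had 69.6 and 86.9 CPM against 7.94 and 8.63 CPM, at -3.23 ± 0.14 (adjusted p = 2.18e-11). All 4 GINS subunits of the replicative helicase lay below a ratio of 1, from -0.99 to -0.77. Of the 6 MCM subunits of the helicase, 3 lay above and none below.

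mRNAs with regulatory uORFs, on which ribosomes are caught before the main reading frame, had 1 gene above and 20 below of 22, with a median of -1.48. By at least 2-fold, 15 lay below (30.5% of all genes did). Against the median gene, 2 lay above and 18 below. These genes were listed because their leaders are known for this control, so a low ratio in them is not independent evidence of it.

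ATF4, the transcription factor of the integrated stress response, had 716 and 801 CPM of mRNA reads and 109 and 115 CPM of footprints. The ratio was -2.76 ± 0.19 (adjusted p = 2.29e-09), and the assays did not overlap. DDIT3, its pro-apoptotic target CHOP, had 11.8 and 12.2 CPM of mRNA reads and 1.88 and 1.99 CPM of footprints, at -2.62 ± 0.33 (adjusted p = 3.05e-06). PPP1R15A, the stress-inducible eIF2 phosphatase subunit GADD34, had 30.6 and 25.4 CPM against 6.64 and 4.93 CPM, at -2.30 ± 0.22 (adjusted p = 1.06e-07). Its constitutive relative PPP1R15B was at -1.37 ± 0.11 (adjusted p = 1.19e-08). SLC35A4 and MIEF1, whose leaders are known to encode small proteins of their own, were at -2.11 ± 0.10 (adjusted p = 6.39e-11) and -2.21 ± 0.11 (adjusted p = 8.87e-11). MDM2, the ubiquitin ligase of p53, was at -1.52 ± 0.10 (adjusted p = 2.68e-09). EPRS, described above, was the 1 member above a ratio of 1, and CEBPB was at -0.08 ± 0.14 (adjusted p = 0.640).

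Polyamine genes had none above and 11 below of 12, with a median of -1.41, and 1 above and 10 below against the median gene. AMD1, the decarboxylase that supplies aminopropyl groups, carries a polyamine-sensing uORF and stands in both lists. It had 495 and 515 CPM of mRNA reads and 95.7 and 85.4 CPM of footprints, at -2.48 ± 0.16 (adjusted p = 1.91e-09). ODC1, ornithine decarboxylase, had 669 and 616 CPM against 219 and 209.6 CPM, at -1.59 ± 0.11 (adjusted p = 3.94e-09). OAZ1, the antizyme made by a programmed frameshift that targets ODC1 for degradation, had 751 and 781 CPM against 251 and 199.9 CPM, at -1.77 ± 0.17 (adjusted p = 1.70e-07). AZIN1, the inhibitor of antizyme, was at -1.49 ± 0.11 (adjusted p = 5.14e-09), and SAT1, the acetyltransferase of polyamine breakdown, at -1.94 ± 0.16 (adjusted p = 2.55e-08). In each of these genes both footprint values lay under both mRNA values.

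Among mRNAs with iron-responsive elements, 5 of 6 tested lay below and none above, with 1 above and 4 below against the median gene. In the ferritins the element lies in the leader, where iron-regulatory proteins block initiation. FTH1, ferritin heavy chain, had 882 and 906 CPM of mRNA reads and 289.5 and 298 CPM of footprints, at -1.61 ± 0.17 (adjusted p = 3.15e-07). FTL, ferritin light chain, had 559 and 666 CPM against 247 and 278 CPM, at -1.22 ± 0.18 (adjusted p = 1.41e-05). In TFRC, the transferrin receptor, the elements lie in the 3' end and act on stability. TFRC had 255 and 298 CPM of mRNA reads and 293 and 431 CPM of footprints, at 0.39 ± 0.18 (adjusted p = 0.0676), and did not pass the test, although without Ribo-seq replicate 1 TFRC passed at 0.64.

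Selenoprotein mRNAs, which read a UGA stop as selenocysteine, had none above and 15 below of 17, with a median of -1.24, and 1 above and 12 below against the median gene. SEPW1, selenoprotein W, had 37.7 and 41.1 CPM of mRNA reads and 3.75 and 5.69 CPM of footprints, at -3.01 ± 0.17 (adjusted p = 3.41e-10). GPX4, the lipid hydroperoxide peroxidase, had 308 and 365 CPM against 74.6 and 73.7 CPM, at -2.18 ± 0.15 (adjusted p = 2.66e-09). SEPHS2, which makes the selenium donor and is a selenoprotein itself, was at -2.29 ± 0.12 (adjusted p = 1.91e-10). TXNRD2, mitochondrial thioredoxin reductase, was at -0.05 ± 0.12 (adjusted p = 0.717) and stood highest of the 17. EEFSEC, the elongation factor that delivers selenocysteine and no selenoprotein itself, was at 0.28 ± 0.14 (adjusted p = 0.0888).

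**Figure D3:**
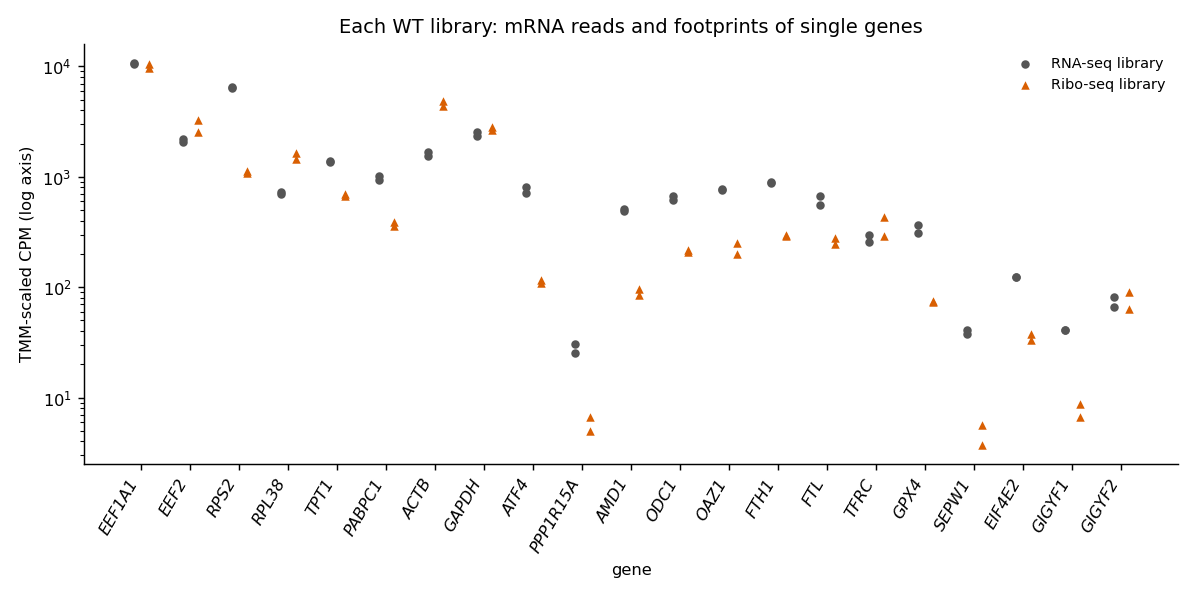
TMM-scaled CPM (log axis) of 21 genes in each of the 2 RNA-seq (circles) and 2 Ribo-seq (triangles) libraries of WT cells. For ATF4, AMD1, ODC1, OAZ1, FTH1, FTL, GPX4 and SEPW1 both triangles lie under both circles, and for RPL38 and ACTB both lie over them, while in EEF1A1, TFRC and GIGYF2 the assays overlap.

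HOX genes, immediate early genes and p53 targets also had medians under that of all genes. HOX genes, the homeodomain factors of body-axis identity, had none above and 27 below of 30 tested out of 39, with a median of -1.51, and 22 lay below by at least 2-fold, with 2 above and 24 below against the median gene. HOXB3 had 22.9 and 23.1 CPM of mRNA reads and 1.44 and 1.99 CPM of footprints, at -3.70 ± 0.20 (adjusted p = 2.63e-10), and HOXD10 was at -3.29 ± 0.24 (adjusted p = 6.80e-09). HOXC9 was highest at 0.04 ± 0.14 (adjusted p = 0.788). HOXB9 had the most reads of the list, with 206 and 192 CPM of mRNA reads and 63.5 and 53.7 CPM of footprints, at -1.77 ± 0.11 (adjusted p = 8.61e-10).

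Immediate early genes, the first to respond to growth signals, had a median of -0.90 over 23 tested out of 34. Of the 23, 2 lay above (8.70%, against 17.3% of all genes) and 14 below (60.9%, against 55.8%). The share below was thus near that of all genes. Against the median gene 6 lay above and 9 below, with 34.9% of all genes above and 35.3% below. SRF, the serum response factor, had 104 and 96.0 CPM of mRNA reads and 15.6 and 17.3 CPM of footprints, at -2.60 ± 0.12 (adjusted p = 3.73e-11). MCL1, a short-lived survival protein, was at -1.57 ± 0.13 (adjusted p = 3.92e-08). MYC and JUN were at 0.26 ± 0.12 (adjusted p = 0.0657) and -0.01 ± 0.15 (adjusted p = 0.943) and did not pass. Targets of p53 had 1 above and 19 below of 21 (55.8% of all genes lay below), with a median of -0.81. Against the median gene the p53 counts were 2 above and 10 below, where 35.3% of all genes lay below. CDKN1A, the cell cycle inhibitor p21, had 12.5 and 12.6 CPM against 4.33 and 2.75 CPM, at -1.88 ± 0.22 (adjusted p = 1.38e-06). BTG2, in both lists, was at -2.30 ± 0.22 (adjusted p = 1.62e-07). POLH, a translesion polymerase, was the 1 above at 0.53 ± 0.12 (adjusted p = 0.000811).

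Membrane and zinc finger families were large, and many members were left untested at low counts. The tests covered 218 of 393 solute carriers, 171 of 269 TMEM genes, 417 of 565 ZNF genes and 31 of 73 protocadherins. Solute carriers had 26 above and 144 below of 218, with a median of -0.73 and 61 above and 91 below against the median gene. TMEM transmembrane genes had 7 above and 122 below of 171, with a median of -0.88 and 28 above and 83 below against the median gene, from TMEM132B at 1.94 ± 0.40 (adjusted p = 0.000451) to TMEM170B at -3.82 ± 0.15 (adjusted p = 8.80e-12). ZNF zinc finger genes had 90 above and 208 below of 417, with a median of -0.46 beside -0.50 for all genes, and 151 above and 120 below against the median gene. ZNF664 had 532 and 492 CPM of mRNA reads and 54.3 and 51.1 CPM of footprints, at -3.28 ± 0.14 (adjusted p = 1.63e-11). ZNF91 had 1.19 and 0.810 CPM against 25.8 and 25.8 CPM, at 4.71 ± 0.30 (adjusted p = 1.49e-09). Protocadherins had 1 above and 24 below of 31, with a median of -1.69 and 4 above and 20 below against the median gene. The members of the gamma cluster share their 3' exons, with PCDHGB3 and PCDHGB6 at -1.88 ± 0.29 and -1.89 ± 0.27, so these are not separate measurements. Without a filter on low counts, or with only genes of at least 5 CPM, the protocadherin median lay above that of all genes.

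The 12 protein-coding genes with the lowest ratios, at a mean of at least 20 CPM over the 4 libraries, ran from -5.16 ± 0.16 to -4.19 ± 0.22. SLC25A23, a mitochondrial ATP-magnesium carrier, had 112 and 121 CPM of mRNA reads and 2.89 and 3.51 CPM of footprints, at -5.16 ± 0.16 (adjusted p = 1.02e-12). NSMF had 103 and 117 CPM against 4.33 and 3.03 CPM, at -4.94 ± 0.16 (adjusted p = 1.77e-12). IRAK1, a kinase of interleukin-1 and Toll-like receptor signalling, had the most mRNA reads of the 12, 582 and 649.6 CPM against 34.5 and 30.0 CPM of footprints, at -4.26 ± 0.15 (adjusted p = 2.94e-12). In the 12, both footprint values lay under both mRNA values, as the rule that named them required. The others were RASL10B, ADCY1, ATXN7L3, TUB, CNTD1, ATXN1L, MLLT6, ZNF704 and CDC14B.

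Non-coding transcripts stood at both ends of the range. NORAD, a cytoplasmic RNA that binds PUMILIO proteins, had the lowest ratio of all genes tested, -6.55 ± 0.24 (adjusted p = 3.98e-12), with 505 and 478 CPM of RNA reads and 5.63 and 4.93 CPM of footprints. Small nucleolar RNA (snoRNA) host transcripts, whose introns yield snoRNAs, had none above and 19 below of 20, with a median of -1.68 and none above and 15 below against the median gene. GAS5, a host known as a TOP RNA, had 151 and 142 CPM against 36.4 and 33.4 CPM, at -2.07 ± 0.10 (adjusted p = 9.62e-11). EPB41L4A-AS1 was lowest at -3.10 ± 0.19 (adjusted p = 9.25e-10). Intergenic and antisense long non-coding RNAs were spread, with 107 above and 139 below of 329 tested out of 2009 and quartiles of -1.17 and 0.90, with 140 above and 96 below against the median gene. LINC00641 was at -4.68 ± 0.22 (adjusted p = 5.24e-11) and LINC00324 at 9.48 ± 0.41 (adjusted p = 2.18e-11). WEE2-AS1 had 1.26 and 0.864 CPM of RNA reads and 4482 and 925 CPM of footprints, with replicate 1 far above replicate 2, and the WEE2-AS1 log2 ratio was 9.78 without Ribo-seq replicate 1 and 12.06 without Ribo-seq replicate 2. MIF-AS1 and SENP3-EIF4A1 overlap coding genes, and no source used here says whether counting used strand.

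The 10 genes with the most RNA-seq reads were abundant housekeeping genes, 6 of them ribosomal proteins. NPM1, a nucleolar histone chaperone, had 3644 and 3546 CPM of mRNA reads and 4173 and 4326 CPM of footprints, at 0.24 ± 0.13 (adjusted p = 0.102). PTMA, prothymosin alpha, had 2764 and 2804 CPM against 991 and 913 CPM, at -1.55 ± 0.15 (adjusted p = 1.80e-07), and ACTG1, gamma-actin, 2999 and 2619 CPM against 5324 and 4262 CPM, at 0.77 ± 0.16 (adjusted p = 0.000531). EEF1A1 and ACTG1 were also among the 10 with the most footprints. The other 8 were histones, the variant U1 RNA RNVU1-19 and LOC388692, each near 0 in RNA-seq.

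The highest ratios belonged to RNAs that RNA-seq barely read. Replication-dependent histone mRNAs end in a stem-loop in place of a poly(A) tail, and the standard protocol of the RNA-seq kit used selects polyadenylated RNA, although the labels do not state the selection. Selection and translation cannot be told apart for these genes, and no translation efficiency is read from them. Of 73 listed histone genes in the table, 16 were tested, 53 had enough reads in Ribo-seq alone and 4 in neither. Some listed genes are not protein-coding in RefSeq, among them HIST2H2BC, a pseudogene there, at 9.66 ± 0.24. The 16, which passed only because their RNA-seq counts reached the minimum, had log2 ratios from 3.94 to 12.26. HIST1H2BK, with the most RNA-seq reads, had 82.1 and 85.2 CPM against 2245 and 2466 CPM of footprints, at 4.82 ± 0.15 (adjusted p = 1.00e-12). HIST2H2BF had 10 and 21 RNA-seq counts and 2137 and 2486 CPM of footprints, at 12.26 ± 1.01 (adjusted p = 2.41e-08). HIST2H3A had no RNA-seq count in either library and 6029.6 and 6902 CPM of footprints, at least 7.07e+04-fold higher against a floor of 3 counts per library. HIST2H3C was listed with the same counts. Of the 12 protein-coding genes with the highest ratios, at the same mean CPM as for the lowest, 9 were replication-dependent histones, and the others were HSPA1A, KANTR at 9.76 ± 0.24 (adjusted p = 6.39e-14) and CLEC2D at 9.72 ± 0.21 (adjusted p = 1.68e-14).

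Replication-independent histones, whose mRNAs are polyadenylated, gave a contrast, with 4 above and 5 below of 11, a median of -0.28, and 4 above and 4 below against the median gene. H2AFX, which has both kinds of mRNA end, had 129.7 and 138 CPM of mRNA reads and 375 and 391 CPM of footprints, at 1.52 ± 0.12 (adjusted p = 2.28e-08). H1F0, a linker histone, was at -1.52 ± 0.12 (adjusted p = 1.64e-08), and H3F3B was at -0.76 ± 0.11 (adjusted p = 9.73e-06).

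Small structured RNAs lay high where they could be tested, but few could. Of 2372 in the table, 103 were tested, 110 had enough reads in RNA-seq alone and 107 in Ribo-seq alone. Of the 103, 77 lay above and 10 below, with a median of 2.75, and the list includes microRNA hosts. Without symbols that begin with MIR, 72 of 78 lay above and none below. RMRP, the RNA of a nuclear ribonuclease, had 0.509 and 1.24 CPM of RNA-seq reads and 786 and 497 CPM in Ribo-seq, at 9.45 ± 1.60 (adjusted p = 6.53e-05). RNVU1-19, a variant U1 RNA, had no RNA-seq count and 11235 and 8886 CPM in Ribo-seq. In the other direction, SNORA105A had 45.3 and 35.6 CPM in RNA-seq and no Ribo-seq count, and MIR1244-1 181 and 169.8 CPM in RNA-seq with 4 and 0 Ribo-seq counts. MIR17HG, host of a microRNA cluster, was below at -2.42 ± 0.24 (adjusted p = 2.13e-07). Their genes are short, and with the width trend removed the list's median lay 1.39 above that of all genes, against 3.25 before. Whether Ribo-seq reads on these RNAs came from ribosomes was not tested.

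**Figure D4:**
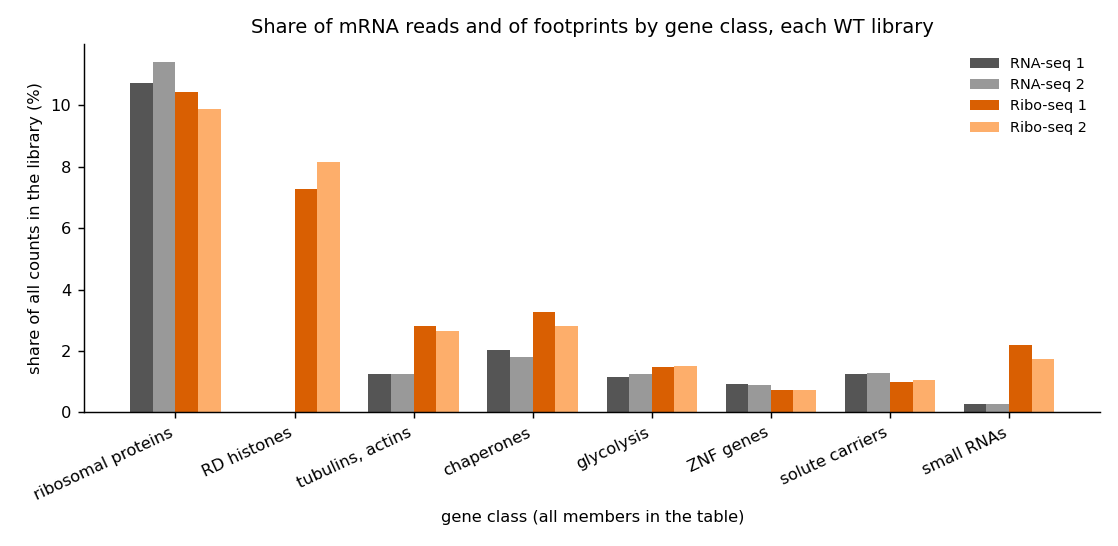
Share of all counts (%) that fell on 8 gene classes in each WT library, with the RNA-seq libraries in grey and the Ribo-seq libraries in orange. Replication-dependent (RD) histones hold 0.0122% in both RNA-seq libraries and 7.28% and 8.17% in Ribo-seq, while ribosomal proteins hold 10.7% and 11.4% in RNA-seq and 10.4% and 9.88% in Ribo-seq. Histone genes listed with identical counts, such as HIST2H3A and HIST2H3C, each enter the sum, so their reads may be counted more than once.

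Shares of counts show the same classes without a per-gene filter. Ribosomal proteins held 10.7% and 11.4% of RNA-seq counts and 10.4% and 9.88% of Ribo-seq counts. Tubulins and actins held 1.26% and 1.24% against 2.81% and 2.64%. Chaperones held 2.04% and 1.79% against 3.27% and 2.82%. TMEM genes held 0.775% and 0.776% against 0.390% and 0.426%. HOX genes held 0.115% and 0.110% against 0.0407% and 0.0411%. With 2 libraries per assay, an exact permutation test cannot reach a p under 0.333, so no test is given for shares.

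Some genes had enough reads in 1 assay alone and are outside the counts above. SYNC, an intermediate filament protein gene, had 148 and 146 CPM of mRNA reads against 0.289 and 0.474 CPM of footprints, the most of any protein-coding gene read in RNA-seq alone. ST6GALNAC6, a sialyltransferase gene, had 60.3 and 61.2 CPM against 1.88 and 0.948 CPM.

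The ratio varied with the length, the leader and the mRNA level of the gene. The count tables give a width for each gene in bases, and over 11547 protein-coding genes its Spearman correlation with the log2 ratio was -0.134. In 10 bins of equal size, the median was -0.21 in the shortest bin, -0.77 in the eighth and -0.63 in the longest. A total of 9593 protein-coding genes had an annotated start, and the G+C content of the 50 bases that follow it, averaged over a gene's annotated starts, had a Spearman correlation of -0.219 with the ratio. Median ratios were -0.30 in the bin of lowest G+C and -1.10 in the bin of highest G+C, where 36 of 960 genes lay above a ratio of 1 and 755 below. In the lowest bin, 214 of 959 lay above and 443 below. The contrast held at -0.33 and -1.13 after the trend with width was removed. When genes were split into 3 groups from low to high mRNA level, it was -0.12 to -0.78, -0.49 to -1.30 and -0.38 to -1.29. Across 10 bins of mRNA level, the lowest had a median of 0.12, with 34.6% of genes above a ratio of 1 and 18.0% below. The next bin had -0.60, 11.8% and 56.4%, and the highest bin a median of -0.29. The mRNA level is the denominator of the ratio, and genes with few mRNA reads were tested only where footprints also passed the filter. Points in these correlations share libraries, and the start used may not be the one these cells use.

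**Figure D5:**
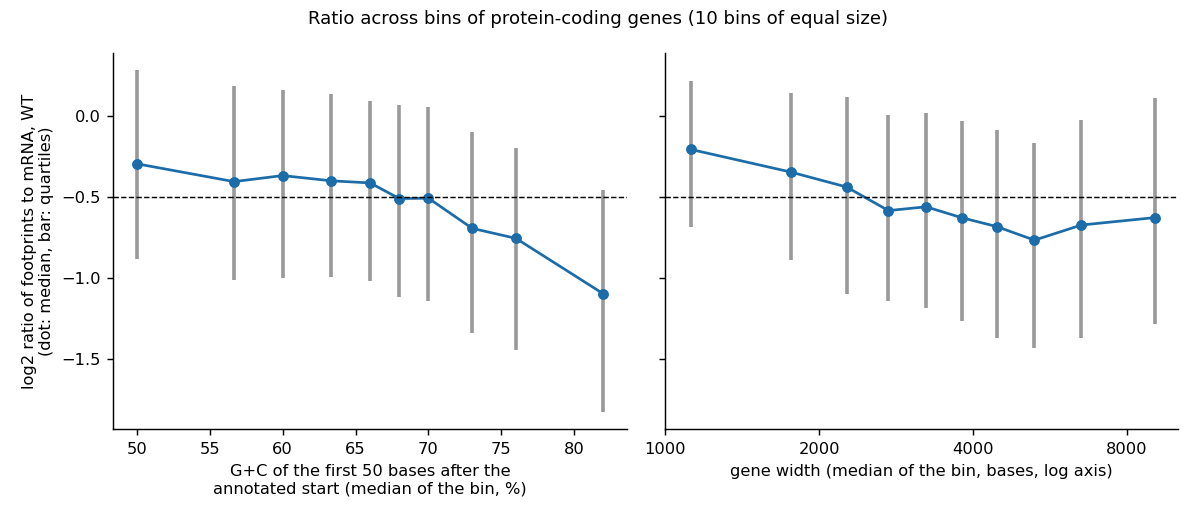
Median (dot) and quartiles (bar) of the log2 ratio of footprints to mRNA over 10 bins of protein-coding genes, by G+C content of the 50 bases after the annotated start (left, 9593 genes) and by gene width in bases on a log axis (right, 11547 genes). The median runs from -0.30 to -1.10 across the G+C bins and from -0.21 to -0.77 across the width bins, with wide quartiles in each.

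The ratios of WT cells were set beside those of the knockouts. Across the 12593 genes, the log2 ratio in WT had a Pearson correlation of 0.965 with that in 4EHP-null cells and 0.976 with that in GIGYF1/2-null cells, computed from separate libraries. Of the 901 genes above by at least 2-fold in WT, 753 were so in both knockouts (83.6%), and of the 3840 below, 3372 (87.8%). edgeR's quasi-likelihood test of the difference in ratio called 15 genes in 4EHP-null cells (0.119%) and 6 in GIGYF1/2-null cells (0.0476%). The median of all genes was -0.54 in 4EHP-null and -0.51 in GIGYF1/2-null cells. In the same order, mRNAs with regulatory uORFs had medians of -1.57 and -1.45, selenoproteins -1.09 and -1.21, and HOX genes -1.56 and -1.53. Ribosomal proteins were at 0.15 and 0.22 there against -0.04 in WT, and matrix genes at 0.20 and 0.31 against 0.58, differences that were not tested as classes. The control ratio in the authors' deposited table for each knockout was available for 9785 of the genes tested, and its log2 had a Pearson correlation of 0.9999 with the ratio given here. The scales differ: the median control ratio was 0.173 and 0.196 in the authors' deposited tables for 4EHP-null and GIGYF1/2-null cells, against a median ratio of 0.707 here.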

How the data were processed

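Per the labels, RNA-seq (TruSeq RNA kit) and Ribo-seq (a modified Ingolia procedure) were made from HEK293T cells. The submitters' processing notes name Bowtie2, TopHat2, edgeR and hg19, while no source used here gives their versions, the annotation, the counter or the use of strand. The deposited values are raw read counts per gene, with a gene width in bases, and the authors' deposited tables of control ratios, which are ratios on a linear scale.

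Counts were analysed in R 4.3.3 with edgeR 4.0.16. All 12 libraries were fitted together (glmQLFit, glmQLFTest), with genotype and assay as groups, TMM scaling within each assay, filterByExpr at a minimum count of 10 in each assay, and an adjusted p (Benjamini-Hochberg) of 0.05 as the threshold. The fitted log2 ratios were computed here from the authors' counts. Depths of 6968894 to 38175701 counts in WT set the precision, and the common biological coefficient of variation was 0.0949. Gene kinds, promoter starts and sequences were taken from RefSeq (GRCh38.p14) by symbol, which matched 25573 of 27011 genes (94.7%). No genome of the build used for alignment was used here.

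The genes, the 39 lists and the tests were chosen with earlier results of these data known. Genes named by rule were those on a fixed list, up to 2 called genes per direction in each list, the 12 genes that RefSeq gives as protein-coding with the highest and the 12 with the lowest ratios among called genes with a mean of at least 20 CPM over the 4 WT libraries and no overlap between assays, the 10 with the most reads per assay, and 6 non-coding genes with the most RNA-seq reads. Families within lists, and other members named to illustrate a list, were chosen after their values were seen. Alternatives covered scaling, filters, DESeq2 1.42.0, limma-voom 3.58.1, a replicate block, a width trend and leaving out each library. The fit was tested on simulated data. Protein length was not analysed here.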

Additional observations from a re-analysis of the deposited data

How the results depend on the processing

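The ratio of 1 depends on how the assays are scaled to each other. The median log2 ratio of all genes, -0.50 as reported, was -0.07264 with TMM over both assays, 0.005755 with relative log expression (RLE) scaling, 0.09859 with upper-quartile scaling and -0.001028 relative to the median gene. It was -0.4691 without TMM, -0.5135 without a filter, -0.5107 for genes passing in either assay, -0.4991 with limma-voom, -0.4695 from the 4 WT libraries alone, -0.5557 after a width trend was removed and -0.4535 for protein-coding genes alone, and -0.513 to -0.5004 when each library was left out. Genes above by at least 2-fold (901) numbered 1526 with TMM over both assays, 1740 with RLE, 2010 with upper-quartile scaling and 1719 relative to the median gene. They numbered 3040 without a filter, 283 at 5 CPM or more in each assay, 2233 for genes passing in either assay and 592 among protein-coding genes alone. Genes below by at least 2-fold (3840) numbered 2308, 2107, 1853 and 2121 under those 4 scalings in the same order. Genes called above (2179) numbered 4047, 4421, 4878 and 4392 under them, 4299 without a filter and 3484 for genes passing in either assay. Genes called below (7028) numbered 4418 with RLE, 3996 with upper-quartile scaling and 4447 relative to the median gene. DESeq2 and limma-voom gave 898 and 903 genes above by at least 2-fold and 3836 and 3826 below.

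Of the 190 named genes tested, 12 changed sign and were called in at least 1 of the fits compared. Another 4 changed sign and were called in neither. A change of scaling shifts all ratios by nearly the same amount, as it did the median of all genes. No other cause was tested. IDH3A gave 0.05256 with RLE, 0.1458 with upper-quartile scaling and 0.04512 relative to the median gene, and NEFL 0.06877 with upper-quartile scaling. With TMM over both assays, RLE, upper-quartile scaling and the median gene in that order, RPS18 gave 0.03606, 0.1165, 0.2097 and 0.1086, RPS6 gave 0.04029, 0.1203, 0.2132 and 0.1126, and TPI1 gave 0.1343, 0.2145, 0.3071 and 0.2067. Genes not called as reported turned to called with the other sign. In the same order EEF1A1 gave 0.3553, 0.4356, 0.5288 and 0.4278 and RPL4 gave 0.3559, 0.4362, 0.5294 and 0.4284. RPS4X gave 0.341, 0.4342 and 0.3332 from RLE on, and RPS3A and COL1A1 gave 0.3463 and 0.5736 with upper-quartile scaling. SNORD141A and SNORD141B, which share their reads, each gave -0.5196 with the width trend removed. Against the median of all genes, 36 of the 39 lists kept their side in every setting run. The exceptions were protocadherins, snoRNA hosts and long non-coding RNAs. Protocadherins changed side without a filter and at 5 CPM or more in each assay. The snoRNA hosts and long non-coding RNAs did so only among protein-coding genes alone, a setting that leaves out non-coding genes. With the width trend removed, the distance from the median of all genes went from 0.2833 to 0.1385 for long non-coding RNAs and from 0.2222 to 0.1405 for replication-independent histones. Protein-coding genes alone and the removal of genes with identical counts were added after the data were seen.

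The main fit did not pair same-numbered libraries of the 2 assays. Differences between replicates 1 and 2 correlated between the assays at 0.123 in WT, 0.0389 in 4EHP-null and 0.256 in GIGYF1/2-null cells. All were positive, and these values alone cannot show whether the samples were paired. With the number as a block, the median was -0.5036, 902 genes lay above and 3845 below by at least 2-fold, and 2279 and 7152 were called.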
